A study of Mus musculus with 10 samples.

Results

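Neuropeptide precursor genes encode prohormones that are cut into short signalling peptides. The set described here comprised Nts, Npy, Cartpt, Tac1, Gal, Vip, Penk, Pomc, Calca and Grp. A gene entered through probe sets that carry its symbol alone in the platform annotation, and the probe set with the highest mean stood for it. This found 9 of the 10 names, with 11 probe sets, among 18194 genes that had such a probe set. Calca, which encodes calcitonin and the alpha form of calcitonin gene-related peptide, had no probe set under that rule and was not analysed here.

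The measurements came from 10 Affymetrix arrays, 5 of wild-type (WT) mice and 5 of mice lacking the transcription factor Fezf2 (KO), all aged 3 weeks and of C57BL/6 background. Each array carried RNA of medullary thymic epithelial cells (mTECs), sorted from the thymus as CD45-, EpCAM+ and CD80hi. The labels give neither the deleted part of Fezf2 nor the cells in which it was deleted, and they do not say whether the arrays came from separate mice. The p-values thus rest on the spread among these arrays alone, part of which could be technical. Arrays keep the numbers of their titles, with WT 1 to 5 and KO 6 to 10.

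Neuropeptides are made from a larger precursor that enters the secretory pathway, is cleaved by prohormone convertases at pairs of basic residues and is often amidated at its end. The peptides act on G protein-coupled receptors of neurons, gut, immune and endocrine cells. Mature mTECs transcribe many genes of peripheral organs, neural and endocrine ones among them, and present the products to developing T cells. Fezf2 and Aire are known regulators of that transcription. The comparison asks which of these genes depend on Fezf2.

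The values are linear signals per probe set, without detection calls. Changes are differences of the mean log2(signal + 16), KO minus WT, a scale that understates the change of low signals. A change was called at an adjusted p under 0.05 over the 14087 genes tested (limma, Benjamini-Hochberg). The number of arrays limits the precision. Fezf2 itself lay between 5054 and 5895 on WT arrays and between 12.1 and 18.3 on KO arrays. The Aire signal was 8791 ± 1156 for WT against 6504 ± 1199 for KO (SD, n = 5 each), a log2 change of -0.45 (limma, adjusted p = 0.0282) whose call was lost without WT 3, WT 4 or WT 5 (adjusted p = 0.0613, 0.0639 and 0.0681). Aire was at 4368 on KO 6 and between 6899 and 7203 on KO 7 to KO 10. With 1 array left out, its log2 change ranged from -0.53 to -0.31. Epcam was between 6994 and 7985 on all arrays, Cd80 between 599 and 1008, and Ptprc, which encodes CD45, between 155 and 298. Other mTEC markers differed between the genotypes. Of 14 tested, 3 were lower, namely Fezf2, Aire and Krt14 (log2 change -0.42), and 3 higher. That is 42.9% called against 29.2% of all genes, a share that includes the deleted gene Fezf2 itself. The higher ones were Tnfrsf11a (log2 change 0.76), Krt5 (0.71) and Cldn4 (0.53). Poly-A spike-in controls averaged 537 on WT 1, 759 on KO 6 and 115 to 422 elsewhere. Xist, the transcript of the inactive X chromosome, reached at most 30.0 on WT 2, KO 6 and KO 8, and at least 5304 elsewhere.

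Of the 9 measured precursor genes, 6 were lower in KO cells, namely Penk, Vip, Nts, Grp, Tac1 and Cartpt. None was higher by limma, with 0 higher also at an unadjusted p under 0.05 and 0 by the exact permutation test. Over all genes tested, 16.2% were lower and 13.0% higher. The other 3 genes, Pomc, Gal and Npy, had lower means in KO cells that did not pass. All 9 lay above the 40th percentile of their array on all 10 arrays, so that none entered through 1 group alone. Their median log2 change was -0.66, against -0.03 for all genes tested. In sorted but mixed cells, fewer cells that transcribe a gene and less RNA per cell cannot be told apart. In 4 genes, Nts, Grp, Penk and Cartpt, every KO array lay below every WT array, which was the case for 12.0% of all genes.

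**Figure D1:**
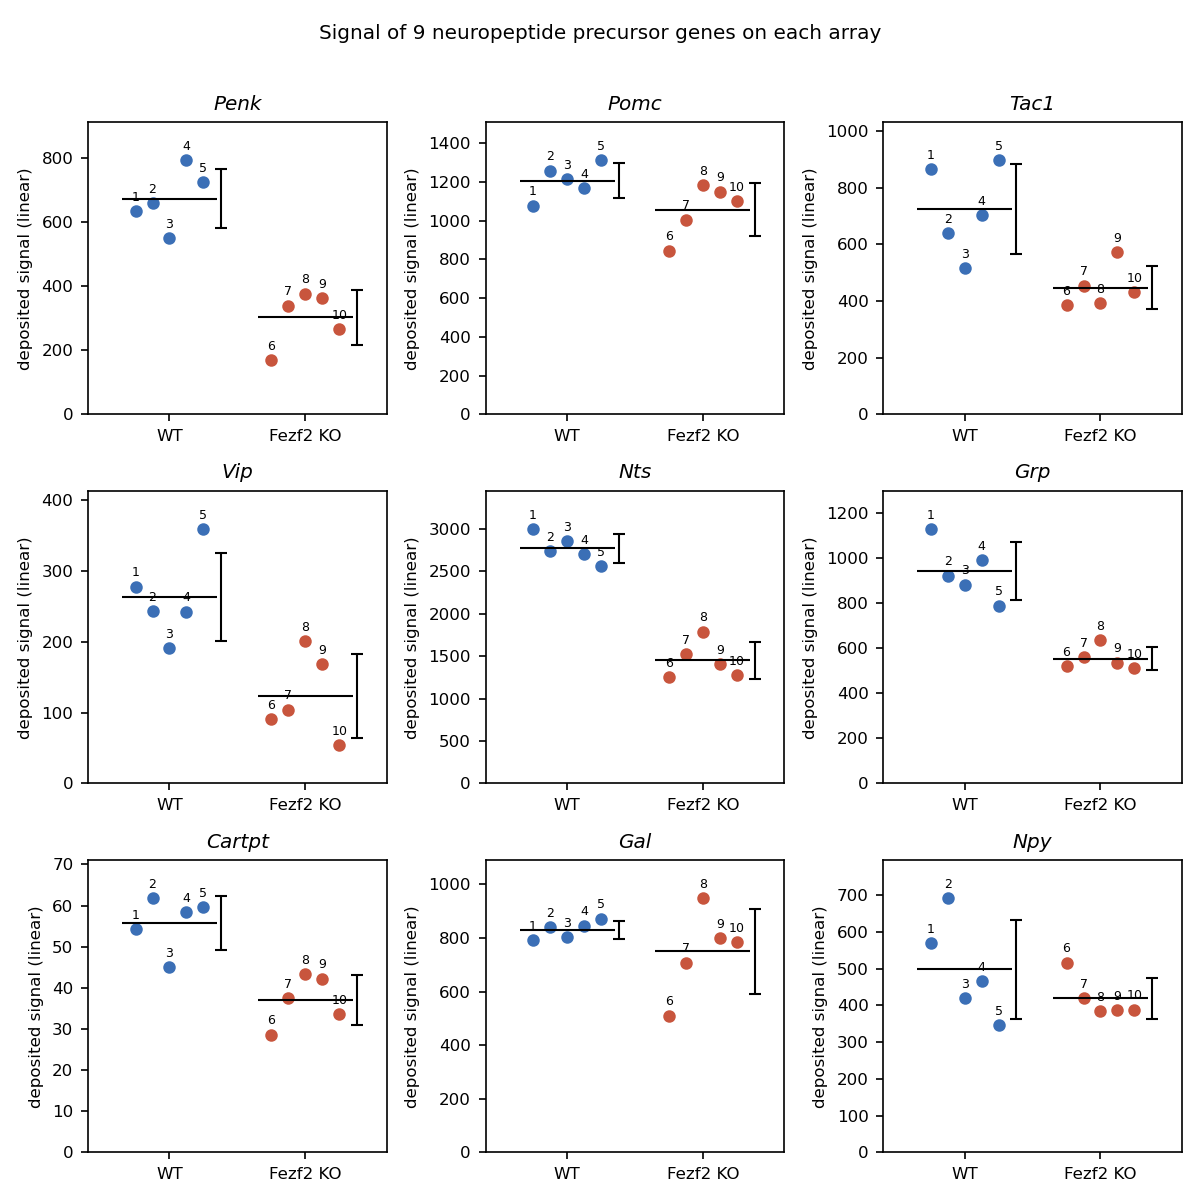
Deposited linear signal of the 9 measured precursor genes on each array, numbered by title, with a line at the group mean and a bar of 1 SD (n = 5 each). The WT and KO points of Penk, Nts, Grp and Cartpt do not overlap, those of Tac1 and Vip overlap by 1 array on each side, and those of Pomc, Gal and Npy intermingle.

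Penk and Pomc are opioid precursors. Penk (probe set 1427038_at) encodes proenkephalin, the source of the enkephalins that act on delta and mu opioid receptors. Its WT signals were 634, 657, 549, 792 and 723 on WT 1 to WT 5, and its KO signals were 169, 338, 376, 362 and 265 on KO 6 to KO 10. KO 6 was the lowest of these, and the highest KO signal lay well below the lowest WT signal. The mean fell from 671 ± 91.9 to 302 ± 85.9 (SD, n = 5 each), which left 45.0% of the WT mean, and the log2 change was -1.15 (SE 0.18, adjusted p = 5.9e-04). Without KO 6 it was -0.97.

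Pomc (1433800_a_at) encodes pro-opiomelanocortin, the precursor of corticotropin, melanocortins and beta-endorphin. Its signals were 1078, 1258, 1213, 1168 and 1312 on the WT arrays and 845, 1005, 1184, 1148 and 1099 on the KO arrays. The groups overlapped, and KO 6 was again lowest. The means were 1206 ± 89.2 and 1056 ± 136, a log2 change of -0.20 with a 95% interval from -0.39 to 0.003 (adjusted p = 0.13). The second probe set of Pomc gave -0.21. With WT 1 and KO 6 as a block the call was made at the same change (adjusted p = 0.0261), whereas without both arrays it was not (-0.16, adjusted p = 0.0879). Without KO 6 alone the change was -0.12 (adjusted p = 0.241).

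The other opioid precursors were lower as well. Pnoc, the precursor of nociceptin, fell from 104 ± 13.2 to 63.01 ± 7.20 (log2 change -0.60), and Pdyn, the precursor of the dynorphins, from 92.9 ± 16.2 to 57.5 ± 7.04 (log2 change -0.56). In neither gene did a KO array reach the lowest WT array. Pdyn is named here as a relative of Penk, after its values were seen, as are Tac2, Tac4, Adcyap1, Nmb and Calcb below for their families.

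Tac1 (1416783_at) encodes protachykinin-1, the source of substance P and neurokinin A, sensory and enteric peptides that act on tachykinin receptors. On WT 1 to WT 5 the signals were 866, 639, 515, 703 and 897, and its KO signals were 386, 455, 392, 573 and 430. Only KO 9 exceeded the lowest WT array, WT 3. The mean fell from 724 ± 159 to 447 ± 75.7, which left 61.8%, and the log2 change was -0.66 (SE 0.15, adjusted p = 0.0054). A second probe set of Tac1 had signals between 9.03 and 11.1 on all arrays, below the filter, and was not tested. Tac4, the precursor of hemokinin, fell from 89.2 ± 15.4 to 63.1 ± 9.19 (log2 change -0.41). Tac2, the precursor of neurokinin B, had means of 1116 ± 91.1 and 947 ± 123 and a log2 change of -0.24 that did not pass (adjusted p = 0.071). Tac2 passed without KO 8 (-0.29, adjusted p = 0.0437).

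Vip (1428664_at) encodes vasoactive intestinal peptide, a relaxant and immunomodulatory peptide of the secretin family. In WT cells its signals were 277, 243, 191, 242 and 359, and its KO signals were 90.5, 104, 201, 168 and 53.9. KO 8 alone lay above the lowest WT array, WT 3, and the KO signals spanned 3.72-fold, more than those of any other precursor gene of the set. The mean fell from 262 ± 62.1 to 123 ± 59.6, which left 47.0%, and the log2 change was -1.08 (SE 0.27, adjusted p = 0.0090). Its 95% interval ran from -1.66 to -0.50. Without WT 1 and KO 6 the adjusted p was 0.0468. Adcyap1, the precursor of the related peptide PACAP, fell from 131 ± 30.7 to 75.99 ± 10.7 (log2 change -0.65). Ghrh, the growth hormone-releasing hormone gene of the same family, fell from 43.7 ± 2.04 to 27.2 ± 4.28 (log2 change -0.47). The KO signals of Ghrh, 20.2 to 31.1, lay near the filter.

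Nts (1422860_at) encodes the precursor of neurotensin and neuromedin N, peptides of the hypothalamus and of enteroendocrine N cells. In WT cells the 5 signals were 2998, 2738, 2857, 2700.5 and 2558, and its KO signals were 1252, 1527, 1790, 1404 and 1276. The WT arrays were close to each other and KO 8 was the highest KO array. The log2 change was -0.94 (SE 0.09, adjusted p = 1.7e-05), the smallest p of the set, with a 95% interval from -1.14 to -0.74.

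Grp (1424525_at) encodes gastrin-releasing peptide, a bombesin-like peptide of neurons and pulmonary neuroendocrine cells. Its WT signals were 1127, 921, 880, 991 and 788, and its KO signals were 520, 559, 636, 535 and 512. The KO signals were tightly grouped, below all WT signals. The mean fell from 941 ± 127 to 553 ± 50.1, which left 58.7%, and the log2 change was -0.75 (SE 0.09, adjusted p = 1.1e-04). Nmb, the gene of the other bombesin-like peptide, neuromedin B, had means of 650 ± 121 and 579 ± 68.0 and a log2 change of -0.15 that did not pass (adjusted p = 0.36).

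Cartpt (1422825_at) encodes the CART prepropeptide, a feeding-related peptide of hypothalamus and gut. The 5 WT signals were 54.2, 61.8, 45.0, 58.4 and 59.5, and its KO signals were 28.6, 37.5, 43.3, 42.2 and 33.6. These signals were low, with array percentiles of the filter at 21.5 to 22.1, and the groups were separated only narrowly, at 43.3 on KO 8 and 45.0 on WT 3. The mean fell from 55.8 ± 6.62 to 37.03 ± 6.11 and the log2 change was -0.44 (SE 0.09, adjusted p = 0.0039). At this signal the size depended on the number added before taking logarithms, with -0.59 for 1 and -0.25 for 64, both past the threshold.

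Gal (1460668_at) encodes galanin, a peptide of neurons and endocrine cells. Its WT signals lay between 792 and 872, and its KO signals were 510, 708, 949, 798 and 785. The WT arrays were nearly equal, while the KO arrays lay on both sides of them, with KO 6 the lowest and KO 8 the highest of all 10. The means were 830.5 ± 32.6 and 750.1 ± 160 and the log2 change was -0.17, with a 95% interval from -0.45 to 0.11 (adjusted p = 0.35). Without KO 6 the change was -0.04.

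Npy (1419127_at) encodes neuropeptide Y, an orexigenic and vasoconstrictor peptide of sympathetic neurons. Its WT signals were 570, 692, 420, 465 and 346, and its KO signals were 516, 420, 384, 387 and 388. The KO arrays lay within the WT range. The log2 change was -0.21, with a 95% interval from -0.55 to 0.13 (adjusted p = 0.35). The change was -0.09 without WT 2 and -0.33 without WT 5, neither past the threshold. The intervals of Gal, Npy and Pomc overlap that of Tac1, which ran from -0.99 to -0.34. Those of Gal and Npy also hold the fitted change of Cartpt, -0.44. The differences between precursor genes were not tested.

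The exact two-sided permutation test of mean log2 signal gave p = 0.0079 for Nts, Grp, Penk and Cartpt, the smallest value that 5 against 5 arrays allow. The same exact test gave p = 0.016 for Tac1 and Vip, 0.079 for Pomc, 0.32 for Gal and 0.33 for Npy. These p-values are not adjusted.

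Some arrays held the same rank in several of the precursor genes. KO 6 was the lowest KO array in 6 of the 9 genes, all but Grp, Vip and Npy, and KO 8 was the highest in 7, all but Tac1 and Npy. Among WT arrays, WT 3 was lowest in 4 genes and WT 5 highest in 4. KO 6 and KO 8 both had low Xist signal and differed in spike-in signal, 759 and 190. The 6 calls held without WT 1 and KO 6, with these arrays as a block, and with the presence of Xist signal as a block, where the log2 changes were -1.11 for Penk, -1.12 for Vip, -0.95 for Nts, -0.76 for Grp, -0.61 for Tac1 and -0.44 for Cartpt.

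**Figure D2:**
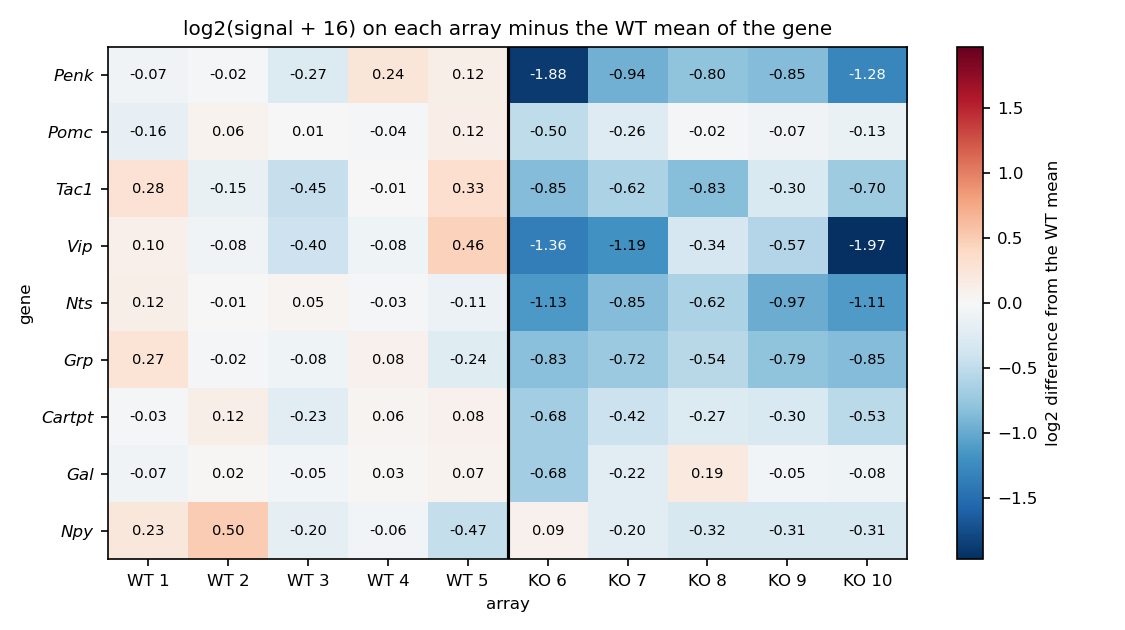
Difference of log2(signal + 16) on each array (columns) from the WT mean of that gene (rows), in blue where lower and red where higher. KO 6 shows the lowest KO value in 6 rows and KO 8 the highest in 7, and Vip on KO 10 has the lowest value of all, -1.97.

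The promoters shown are those of the genes that fell, a group formed by their change in these same data. The RefSeq promoter table of build GRCm38.p6 matched 8 of the 10 names, all but Penk and Grp. Each sequence below holds the 200 bases before the gene's start in that table, 5′ to 3′ on the gene's strand. Capitals mark TGACG or its complement CGTCA, the core of the cAMP response element TGACGTCA, at which CREB family factors bind and which is known from neuropeptide promoters. The windows are chr10:102490419-102490618 (minus strand) for Nts, chr6:7554861-7555060 (plus) for Tac1, chr10:5639018-5639217 (plus) for Vip and chr13:99900684-99900883 (minus) for Cartpt.
Nts: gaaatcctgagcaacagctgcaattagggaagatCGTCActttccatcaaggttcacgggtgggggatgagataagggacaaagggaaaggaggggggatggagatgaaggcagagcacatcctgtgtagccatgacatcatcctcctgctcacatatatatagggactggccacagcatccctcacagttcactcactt
Tac1: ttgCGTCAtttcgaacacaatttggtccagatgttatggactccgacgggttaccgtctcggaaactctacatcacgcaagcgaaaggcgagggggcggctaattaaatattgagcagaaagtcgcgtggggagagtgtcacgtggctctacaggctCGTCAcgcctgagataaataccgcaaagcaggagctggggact
Vip: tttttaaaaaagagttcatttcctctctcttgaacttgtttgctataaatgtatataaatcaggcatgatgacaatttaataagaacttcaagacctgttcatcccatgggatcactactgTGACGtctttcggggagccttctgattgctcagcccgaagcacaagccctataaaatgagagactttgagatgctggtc
Cartpt: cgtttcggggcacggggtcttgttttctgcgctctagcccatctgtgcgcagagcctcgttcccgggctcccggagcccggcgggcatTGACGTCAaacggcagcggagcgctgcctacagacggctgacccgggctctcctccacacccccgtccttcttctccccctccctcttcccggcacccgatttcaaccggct

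TGACG on either strand stood within the 250 bases before the start in 4 of the 4 genes that fell and had a promoter entry, and in 0 of the 3 that did not pass, Gal, Npy and Pomc. It was present in 17.8% of all 32851 promoters of that length. Calca, which was not measured, also had a match, 65 bases before the start. The match lay 166 bases before the start in Nts, 79 in Vip, and 43 and 197 in Tac1. Cartpt alone had the full TGACGTCA, which holds the core on both strands, 112 bases before the start, and 1.55% of all promoters had it. A match is a description of the letters and was not tested as a site. Because the genes were grouped by their change, these counts are no test of the motif. A link between the motif and the change in KO cells was not tested.

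Genes with the closest pattern to each precursor gene that fell were taken by the mean absolute difference of log2 signals, each centred on its own mean over the 10 arrays. For Nts these were Tnf, AW112010 and Myo15b, with differences of 0.08 each. For Grp they were Loxl3 at 0.07, AW112010 at 0.08 and Alas1 at 0.09. Those of Penk were Mtmr7 at 0.10, Naip5 at 0.14 and Calb2, which encodes calretinin, at 0.14. Those of Cartpt were Nxph2 at 0.06, and Fbxw10 and Drc3 at 0.07. Tac1 had Slc13a4, Krt33a and Pate4, at 0.12 to 0.13, and Vip had the fibrinogen gene Fgb, Krt33a and Tectb, all at 0.23, the least close.

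Other neuropeptide precursors changed in both directions. Of 44 names, 32 were tested, of which 11 were lower, 4 higher and 17 not past the threshold. That is 46.9% called, against 29.2% of all genes, with a median log2 change of -0.15. Besides Pnoc and Ghrh, Nppa, the gene of atrial natriuretic peptide, fell from 276 ± 23.3 to 115 ± 39.2 (log2 change -1.22, adjusted p = 6.3e-04), with KO signals of 52.97 to 161 below WT signals of 247 to 296. Npvf, the precursor of RFamide-related peptides, rose from 28.7 ± 0.58 to 44.2 ± 5.67 (log2 change 0.42), at signals near the filter. Calcb, which encodes the beta form of calcitonin gene-related peptide and is the closest relative of the unmeasured Calca, had 8185 ± 197 and 7978 ± 714 (log2 change -0.04, adjusted p = 0.65).

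**Figure D3:**
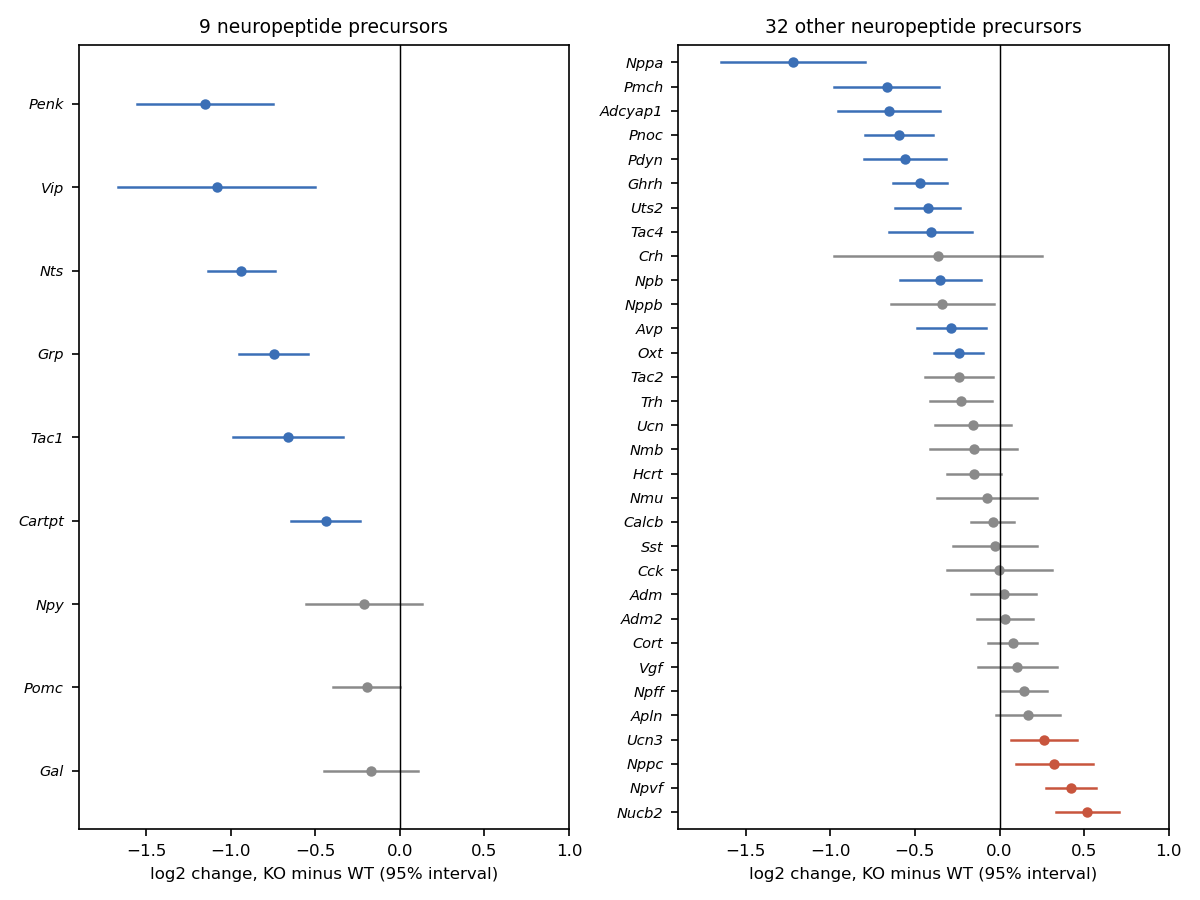
Log2 change, KO minus WT, with its 95% interval for the 9 precursor genes of the set and for 32 other neuropeptide precursors, in blue where lower, red where higher and grey where not past the threshold. The set holds 6 lower genes and the others 11 lower and 4 higher, with Nppa at -1.22 the lowest of the others.

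Most receptors of these peptides were below the filter. Of 30 receptor and accessory genes 28 had a probe set and 11 were tested, of which 2 were lower, 2 higher and 7 not past, with a median of -0.13. That is 36.4% called, against 29.2% of all genes. The calls concerned the calcitonin and VIP families. Calcr, the calcitonin receptor, fell from 163 ± 24.7 to 99.5 ± 23.2 (log2 change -0.65) and Ramp3, an accessory protein of that receptor family, from 174 ± 28.6 to 114 ± 14.8 (-0.54). Ramp2, which pairs with the receptor gene product of Calcrl, rose from 107 ± 18.6 to 152 ± 26.3 (0.45), and Vipr1, a receptor for vasoactive intestinal peptide, from 46.9 ± 10.2 to 68.4 ± 11.5 (0.43). Calcrl itself had a change of -0.17 that did not pass (adjusted p = 0.13). The rise of Vipr1 was at low signals, 35.7 to 84.8 over all arrays. Without a filter 28 genes were tested and 8 were called, 4 in each direction.

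The enzymes and granule proteins that process precursors did not shift one way. Of 15 tested, 2 were lower, 2 higher and 11 not past, with a median of 0.03. The 26.7% called lay near the 29.2% of all genes. Pcsk5, a proprotein convertase, fell from 178 ± 20.2 to 120.4 ± 19.7 (log2 change -0.52) and Qpctl, a glutaminyl cyclase, rose from 67.02 ± 13.2 to 104 ± 12.9 (0.55). The calls of Scg5 (0.52) and Scg3 (-0.26) were lost in 8 and 7 of 10 leave-one-out fits, so that without WT 5, KO 8, KO 9 or KO 10 only 2 of the 15 were called. Pcsk1, the main convertase of neuroendocrine granules, was below the filter, and Pcsk2 was not analysed here. Chga, the granule protein chromogranin A and a marker of neuroendocrine cells, spanned 367 to 1619 on WT and 566 to 7310 on KO arrays. Its log2 change of 1.24 did not pass (adjusted p = 0.18), nor did it in 9 of 10 leave-one-out fits. It passed only without KO 7 (1.73, adjusted p = 0.0262). The granule genes Chgb and Scg2 had changes in the other direction, -0.32 and -0.25, that did not pass either (adjusted p = 0.18 and 0.14).

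Of 11 tested peptidases that break down neuropeptides, 5 were higher, 1 lower and 5 not past, with a median of 0.05. That is 54.5% called, against 29.2% of all genes. Dpp4, which trims neuropeptide Y and VIP among others, rose from 113 ± 16.6 to 451 ± 60.6 (log2 change 1.86, adjusted p = 3.6e-07), and Anpep, aminopeptidase N, from 29.4 ± 5.85 to 106 ± 16.3 (1.42). The WT signals of Anpep, 20.4 to 36.1, lay near the filter. Enpep, aminopeptidase A, and Ece1, an endothelin-converting enzyme, had changes of 0.82 and 0.67. Every KO array lay above every WT array in 5 of the 11, these 4 among them, against 10.1% of all genes. With the mean of probe sets 6 were higher and 0 lower, with a median of 0.23.

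Of 8 tested transcription factors of neuroendocrine cells, 3 were higher, 1 lower and 4 not past, with a median of 0.05. That is 50% called, against 29.2% of all genes. Pax6 rose from 23.7 ± 4.95 to 73.3 ± 15.5 (log2 change 1.16), Neurod1 from 23.3 ± 2.75 to 51.2 ± 12.4 (0.76) and Isl1 from 413 ± 80.5 to 626 ± 72.5 (0.59). The WT signals of Pax6, 16.4 to 29.5, and of Neurod1, 20.3 to 27.3, lay near the filter. Neurog3, which starts the endocrine programme of the gut and pancreas, had a change of -0.59 (adjusted p = 0.0301) whose call was lost without WT 3, WT 4 or KO 8 (adjusted p = 0.0577, 0.0773 and 0.058).

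**Figure D4:**
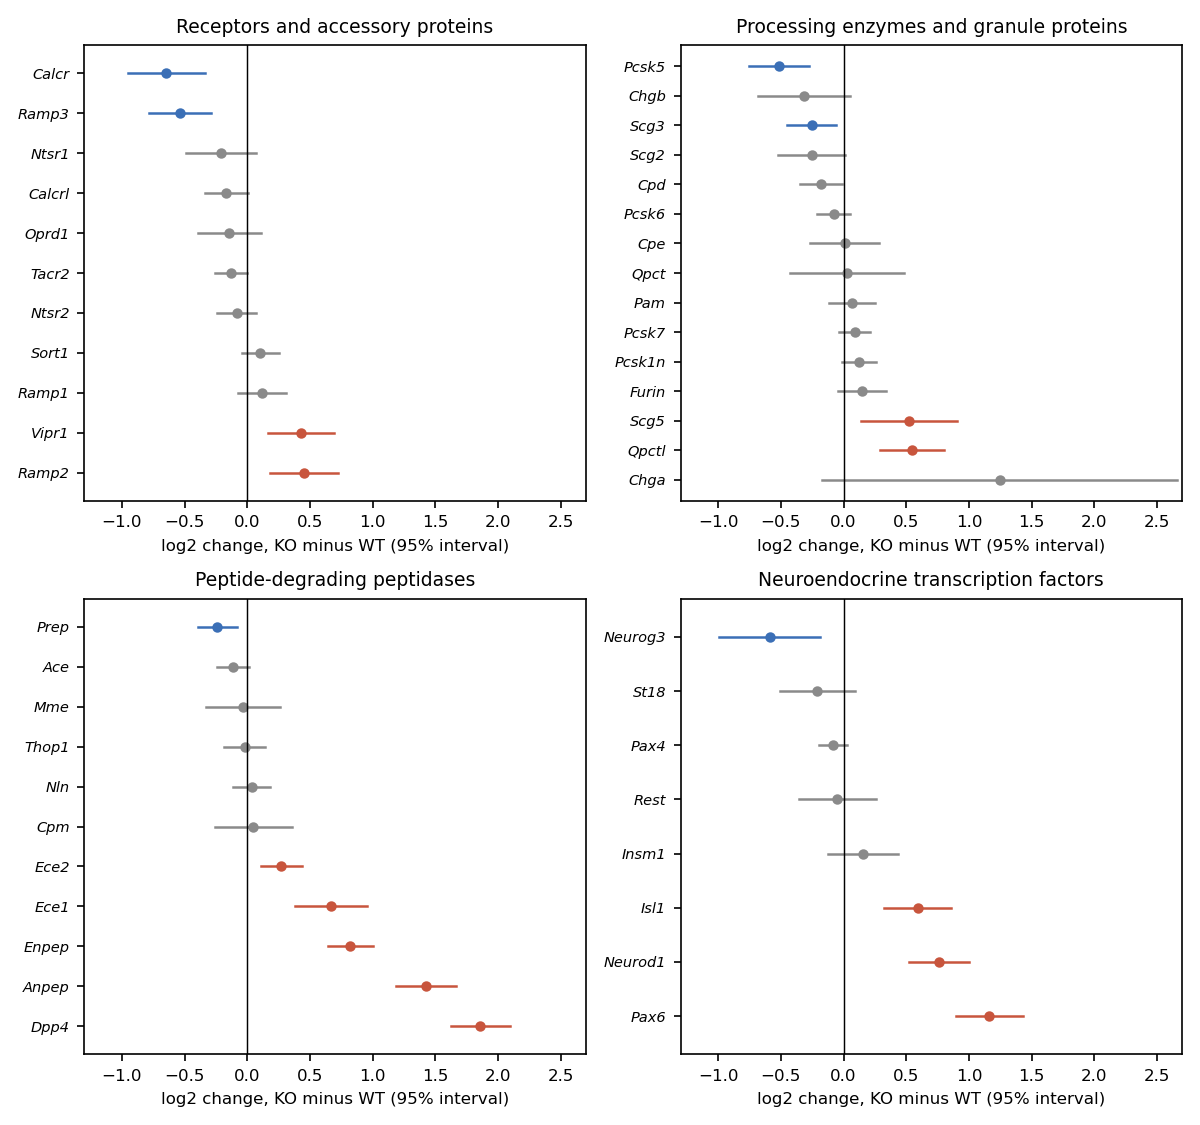
Log2 change, KO minus WT, with its 95% interval for tested receptors (11), processing and granule genes (15), degrading peptidases (11) and neuroendocrine transcription factors (8), coloured as above for lower, higher and not past. Peptidases run up to 1.86 for Dpp4, and the interval of Chga is the widest.

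Markers of other cells moved beside the precursor genes. For the counts below, 16.2% of all genes tested were lower and 13.0% higher. Of 6 tested nerve and glia markers 3 were lower and none higher by limma (4 and 0 at an unadjusted p under 0.05), and their summed signal was 1052 to 1307 on WT and 674 to 891 on KO arrays. Prph, the intermediate filament peripherin of peripheral neurons, fell from 352 ± 55.6 to 186 ± 18.3 (log2 change -0.85), and Nefm, a neurofilament, by 0.77 on the log2 scale, a call lost without WT 1 and KO 6 (adjusted p = 0.0666). The call of S100b was lost in 6 of 10 leave-one-out fits, and Gfap and Tubb3 were below the filter. Of 7 tuft cell markers 2 were lower, with sums of 1017 to 2287 on WT and 1026 to 1797 on KO arrays. The call of Plcb2 among them was lost in 8 of 10 leave-one-out fits, with quantile normalization and with median centring. Of 7 myeloid markers 4 were lower and 1 higher, with sums of 5348 to 5840 and 3526 to 4552. Most of these sums was Lyz2 alone, at 4110 to 4575 on WT and 2622 to 3420 on KO arrays. The sums of 6 endothelial markers, of which 5 were higher, were 412 to 602 and 725 to 871. Those of 2 B cell markers, Cd79b lower and Ms4a1 higher, were 271 to 320 and 211 to 234, with Cd79b the larger part. Sums overlapped between the genotypes for 7 thymocyte markers, 773 to 1035 and 550 to 1201, of which 0 were called. They also overlapped for 7 fibroblast markers, 2507 to 3164 and 2682 to 3490, of which 2 were higher and 0 lower. Lum rose from 81.8 ± 4.88 to 162 ± 16.3 (log2 change 0.86). Dcn rose by 0.30 on the log2 scale, a call lost in 3 of 10 leave-one-out fits. The part of these cells in the precursor signals was not tested.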

How the data were processed

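The authors deposited 1 table of linear signal intensity for 45101 probe sets on 10 arrays. The submitters' processing notes name only MAS5; scaling and background correction were not given in the sources used here. The annotation gave 1 gene symbol for 34958 probe sets, of which 34754 matched a RefSeq gene by Entrez identifier. A probe set had to lie above its array's 40th percentile on at least 5 arrays, and each gene was then read from its brightest remaining probe set, which left 14087 genes. Values were analysed as log2(signal + 16) with limma 3.58.1 in R 4.3.3 (lmFit, and eBayes with trend and robust estimation), as KO minus WT, and p-values were adjusted by Benjamini-Hochberg over all genes. The procedure was tested on simulated data.

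The set, the gene lists and the alternatives were chosen with earlier results of these data known. The genes named are the set, Fezf2, Aire, from each list up to 4 called genes, taken by adjusted p, the 3 genes closest in pattern to each precursor that fell, and genes marked as chosen after their values were seen. Chga, Chgb, Scg2, Calcrl and Krt14 were named outside this rule, with their values known. Their lists hold further genes that are not named. The alternatives comprised quantile normalization, median centring, an offset of 1 or 64, no filter or one at the 60th percentile, the mean of probe sets, no shared-sequence probe sets, plain eBayes, array weights, a threshold of 0.01, each array left out, WT 1 and KO 6 left out or as a block, and Xist signal as a block. Labels give no batch, and the highest correlation between arrays was 0.997, so that none was a duplicate.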

Additional observations from a re-analysis of the deposited data

Results flagged for a closer look

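Npy on KO 6, at 516, stood apart from the other KO arrays, which lay between 384 and 420. The gap was 0.73 of the range of the 5 arrays. It was the only such case in 18 groups of 5 arrays, and chance gives about 1 in 20. KO 6 was the highest KO array for Npy and the lowest for 6 other precursor genes.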

How the results depend on the processing

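The 6 calls among the precursor genes held under every alternative in which the gene was tested. Cartpt was not tested with the filter at the 60th percentile, nor Pomc without probe sets of shared sequence. Pomc was called with WT 1 and KO 6 as a block. At an adjusted p of 0.01 the number of calls was 2473 for all genes, 2 for receptors, 9 for the other precursors and 2 for processing. Without a filter 8 receptors were called, and with the filter at the 60th percentile 2 neuroendocrine transcription factors. Leaving out 1 array gave 3427 to 4207 calls for all genes (4119 with all arrays), 2 to 4 for processing and 11 to 15 for the other precursors. The change of Calcb was 0.012 without WT 1 and KO 6, and it ranged from -0.079 to 0.0076 when 1 array was left out, positive only without KO 6. Of 1771 values of single named genes under the alternatives, 1699 kept their direction and side of the threshold, 65 lost the call, 5 gained it and 2, both of Calcb, changed sign. No paired analysis was possible because the labels give no pairing between WT and KO arrays. Without detection calls, low signals such as those of Cartpt, Ghrh, Npvf and Vipr1 cannot be told from background with certainty. The same holds for the WT signals of Pax6, Neurod1 and Anpep. The MAS5 scaling is unknown.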
